A study of Mus musculus with 4 samples.

Results

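Iron-dependent dioxygenases are enzymes that use ferrous iron, oxygen and alpha-ketoglutarate to hydroxylate or demethylate proteins, nucleic acids and metabolites. The members were chosen by gene symbol alone, from probe sets that carry a single symbol: the Kdm, Tet, Alkbh, Egln, P4ha, Plod, P3h and Jmjd families with P4htm, Phf8, Phf2, Hif1an, Fto, Asph, Phyh, Bbox1 and Tmlhe. The flavin-dependent Kdm1a and Kdm1b and the sex-chromosome genes Kdm5c, Kdm5d and Kdm6a were left out by the same rule. It found 47 of the 22180 genes with a probe set of their own. One of them, Alkbh3os1, is an antisense RNA and no enzyme gene, and P3h4 is a member of its family without the catalytic domain. Alkbh1, Jmjd6, Jmjd7, Plod3 and Kdm2b share their probe sets with another gene and were not analysed here. Where a gene had more than 1 probe set, the one with the highest mean was used. Of the 47 members, 37 reached the level filter, a highest log2 signal of 4.67 or more, which is the median of all gene means, and 12060 genes in all did so.

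The data were 4 Affymetrix whole-transcript arrays of colon RNA from C57BL/6 mice aged 3 months, 1 array for each combination of tissue and Dmt1 genotype. Every mouse carried CDX2, which the labels do not spell out, and 1 floxed Apc allele beside a normal one (ApcF/+). The wild-type groups (normal colon and tumour) were Dmt1+/+, and the F/F groups (normal colon and tumour) were Dmt1F/F, floxed on both alleles of the iron importer gene Slc11a2. The design text counts 7 mice of the Dmt1+/+ and 4 of the Dmt1F/F genotype, and no source used here says whether their RNA was pooled. No group had a replicate, so a difference between 2 arrays has no measure of error, and the small number of arrays limits precision throughout. Values given in pairs below name the wild-type array first and the F/F array second. In whole tissue, fewer cells of a type and less RNA per cell cannot be told apart.

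The enzymes fall into families with separate tasks. The Egln prolyl hydroxylases and Hif1an mark the hypoxia-inducible factors for degradation or silence them while oxygen is present, and Egln3 is itself a known target of those factors. JmjC histone demethylases remove methyl groups from histone lysines, TET enzymes oxidise methylcytosine in DNA, and AlkB proteins and Fto repair or demethylate DNA, RNA and protein. The P4ha, Plod and P3h enzymes hydroxylate proline and lysine of collagen in the endoplasmic reticulum, Tmlhe and Bbox1 carry out the first and last steps of carnitine synthesis, and Phyh starts the breakdown of phytanic acid in peroxisomes. Because the catalytic iron is ferrous, the family is often discussed where cellular iron supply changes, here through a floxed iron importer gene.

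The probe set of Slc11a2 read log2 6.51 and 6.13 in normal colon and 6.64 and 6.19 in tumour, lower on both F/F arrays; which part of the gene it covers was not examined. All 7 epithelial markers (Epcam, Cdh1 and others) passed the level filter, with mean log2 signals of 9.87 and 10.10 in normal colon and 9.07 and 9.52 in tumour. Of the 7, 5 were lower in tumour in both genotypes, with Cdx2 lowest (-2.56 and -2.09). Epcam (0.11 and 0.02) and Cdh1 (0.19 and 0.42) were higher. The arrays also differed in markers of position along the colon. The 6 distal markers, Hox genes, averaged 5.72 and 4.51 in normal colon and 6.72 and 6.70 in tumour, and the 8 proximal markers averaged 6.07 and 7.09 in normal colon and 4.66 and 4.81 in tumour. Where along the colon each piece was taken is not stated in the labels, so position cannot be told apart from tissue or genotype in the comparisons below. Among the other marker lists, all measured genes of proliferation (9), Wnt targets (9), neutrophils (8), macrophages (7) and endothelium (6) above the level filter read higher in tumour in both genotypes, and all those of goblet cells (8) and adipocytes (6) lower. Of 7 markers of B and plasma cells, 1 was higher in tumour in wild-type and 7 in F/F mice. Between the tumours, 8 of 8 neutrophil markers were lower and 7 of 7 B and plasma cell markers higher on the F/F array. Some markers reached the filter level of 4.67 only on the array where they read highest. These include S100a8, S100a9, Csf3r, Cxcr2, Clec4e and the Wnt target Ascl2 (wild-type tumour), Cr2 (F/F tumour) and Plin1 (F/F normal colon). The sizes of their differences are uncertain, and so are their directions between the other arrays. The part of these cell types in the values of the enzymes was not tested.

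The 250 bases before the transcription start are shown for the oxygen sensor Egln3, which was called, for its paralog Egln1, which was not called, and for Alkbh7 and Phyh, because these are the members with a single listed start on which the results turn. The sequences are from RefSeq, build GRCm38.p6, 5′ to 3′ on the gene's strand. Capitals mark ACGTG or GCGTG on either strand (so also CACGT or CACGC), the core letters of the element that hypoxia-inducible factors bind.
Egln3, chr12:54203875-54204124, minus strand: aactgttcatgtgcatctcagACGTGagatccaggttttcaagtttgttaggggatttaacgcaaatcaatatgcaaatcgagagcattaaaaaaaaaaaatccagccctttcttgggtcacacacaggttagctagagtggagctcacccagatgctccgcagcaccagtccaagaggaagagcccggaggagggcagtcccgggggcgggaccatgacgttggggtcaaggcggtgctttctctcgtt
Egln1, chr8:124949255-124949504, minus strand: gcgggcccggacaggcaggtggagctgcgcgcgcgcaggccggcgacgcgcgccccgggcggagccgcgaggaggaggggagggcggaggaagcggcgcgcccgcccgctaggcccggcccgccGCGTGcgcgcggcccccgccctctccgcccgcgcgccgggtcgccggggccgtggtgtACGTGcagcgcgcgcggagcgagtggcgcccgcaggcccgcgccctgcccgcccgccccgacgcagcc
Alkbh7, chr17:56997089-56997338, plus strand: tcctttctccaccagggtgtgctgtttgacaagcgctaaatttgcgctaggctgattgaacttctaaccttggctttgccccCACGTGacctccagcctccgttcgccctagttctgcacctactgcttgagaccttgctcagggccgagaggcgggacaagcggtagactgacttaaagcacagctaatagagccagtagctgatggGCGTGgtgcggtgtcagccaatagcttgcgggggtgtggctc
Phyh, chr2:4918746-4918995, plus strand: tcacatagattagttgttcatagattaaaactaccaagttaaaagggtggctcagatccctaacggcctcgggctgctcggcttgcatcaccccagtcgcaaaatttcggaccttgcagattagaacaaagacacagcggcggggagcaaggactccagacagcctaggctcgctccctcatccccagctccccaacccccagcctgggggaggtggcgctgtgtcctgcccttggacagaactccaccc

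Egln3 had 1 match, which began 229 bases before the start. Egln1 had 2 matches, at 126 and 68 bases before the start. Alkbh7 had 3, of which those at 168 and 167 bases overlap as the palindrome CACGTG, with the other at 42 bases, and Phyh had none. Of the 37 members with a window in the table, some of them below the level filter, 20 (54.1%) held a match in at least 1 of their windows. Of all 27025 genes with a window 41.5% did, of the 9445 genes tested that have one 59.7%, and of all 32851 windows 38.6%. The other 10 members, Tmlhe and P3h2 among them, had no entry. A match is a description of the letters and not a binding site.

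Of the 37 members, 4 were called as different between tumour and normal colon. With 1 array per group, a member that was not called may still differ. In limma's additive model over the 4 arrays, Egln3 rose in tumour, and Tmlhe, Alkbh7 and Phyh fell, whereas the other 33 of 37 members did not pass at an adjusted p of 0.05. Of all 12060 genes tested, 19.3% were called in this comparison, 11.0% that rose and 8.23% that fell; the 4 called members are 10.8% of the 37. Of all calls 57.3% rose, and 46.4% did when the arrays were normalized by cyclic loess. The fitted tumour minus normal difference had a median of 0.10 on the log2 scale over the members and 0.07 over all genes, and its median size without regard to sign was 0.26 over the members and 0.32 over all genes. Tumour and normal differed in the same direction in both genotypes for 30 of 37 members (81.1%), against 78.2% of all genes. The only residual of the model (1 degree of freedom) is the interaction of tissue with genotype, so no difference between the genotypes in the tumour effect could be tested.

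**Figure D1:**
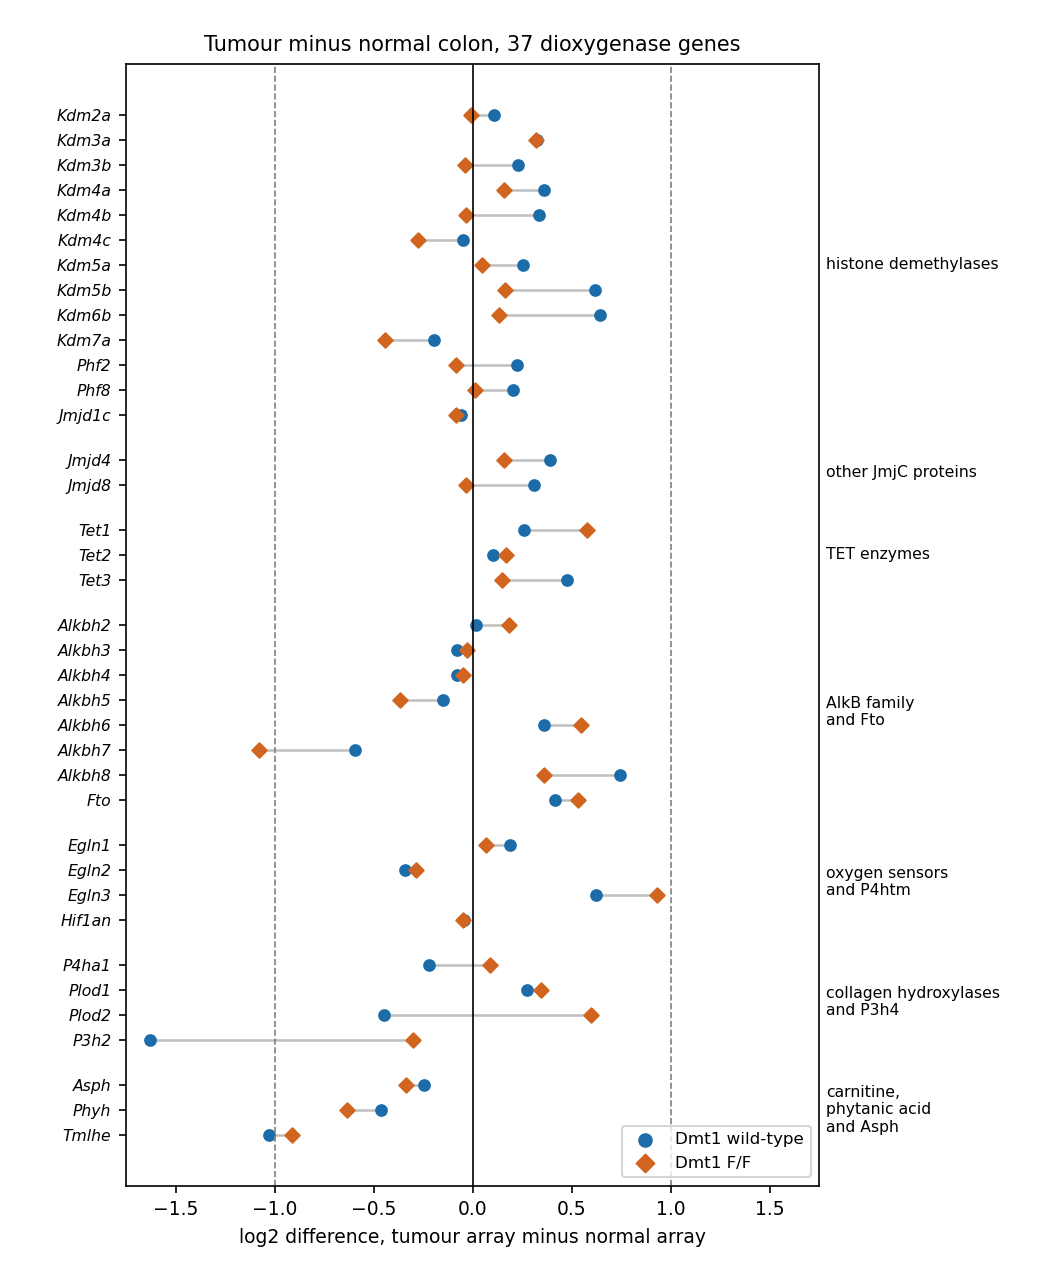
Tumour minus normal colon in Dmt1 wild-type (circles) and Dmt1 F/F mice (diamonds), as the log2 difference of 2 arrays, for the 37 members that passed the level filter, grouped by role. Dashed lines mark 2-fold; P3h2 and Tmlhe in wild-type and Alkbh7 in F/F mice lie beyond them, all lower in tumour.

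Among the oxygen sensors, Egln3 read 8.51 and 7.98 in normal colon and 9.14 and 8.91 in tumour. Both tumour arrays were above both normal arrays. The difference was 0.62 in wild-type and 0.93 in F/F mice, and 15.5% and 6.97% of all genes had one as high or higher. In limma's fit Egln3 rose 1.71-fold, a log2 difference of 0.78 (SE 0.13, adjusted p = 0.0287). The mean of the distal position markers above took the same order over the 4 arrays, and all 6 of them were higher in tumour in both genotypes. The means of the Wnt target, neutrophil, macrophage and fibroblast markers, and of the collagen genes, took that order too. The part of any of these in the result was not tested.

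The paralogs of Egln3 did not pass. Egln1, the main oxygen-sensing isoform in most tissues, read 7.39 and 7.44 in normal colon and 7.58 and 7.51 in tumour, a fitted difference of 0.13 (SE 0.12, limma adjusted p = 0.468). Egln2 read 6.33 and 6.47 in normal colon and 5.99 and 6.18 in tumour, lower in both tumours but not called (-0.31, SE 0.13, limma adjusted p = 0.146). Hif1an, the asparaginyl hydroxylase that blocks coactivator binding, stayed between 6.12 and 6.31 on all arrays. P4htm, a transmembrane prolyl hydroxylase, was below the level filter, with a highest value of 3.97. The 3 Egln paralogs thus had fitted differences of 0.78, 0.13 and -0.31, of which only that of Egln3 passed the test; differences between paralogs were not tested.

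Of the factors these sensors act on, Hif1a read 8.64 and 8.59 in normal colon and 9.04 and 9.06 in tumour (0.44, SE 0.11, limma adjusted p = 0.0576), and Epas1 fell by 0.59 (SE 0.11, limma adjusted p = 0.0368), from 7.54 and 8.05 to 6.94 and 7.48. The list of the hypoxia-inducible factor pathway and its targets was divided. Of 20 genes that passed the filter, 3 rose, led by the stress gene Ddit4 (1.21), where 11.0% of all genes rose. Another 5 fell, with the mitochondrial protein gene Higd1a lowest at -1.88, where 8.23% of all genes fell. The list's median tumour minus normal difference was -0.24 in wild-type and -0.14 in F/F mice, against 0.08 and 0.04 over all genes.

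**Figure D2:**
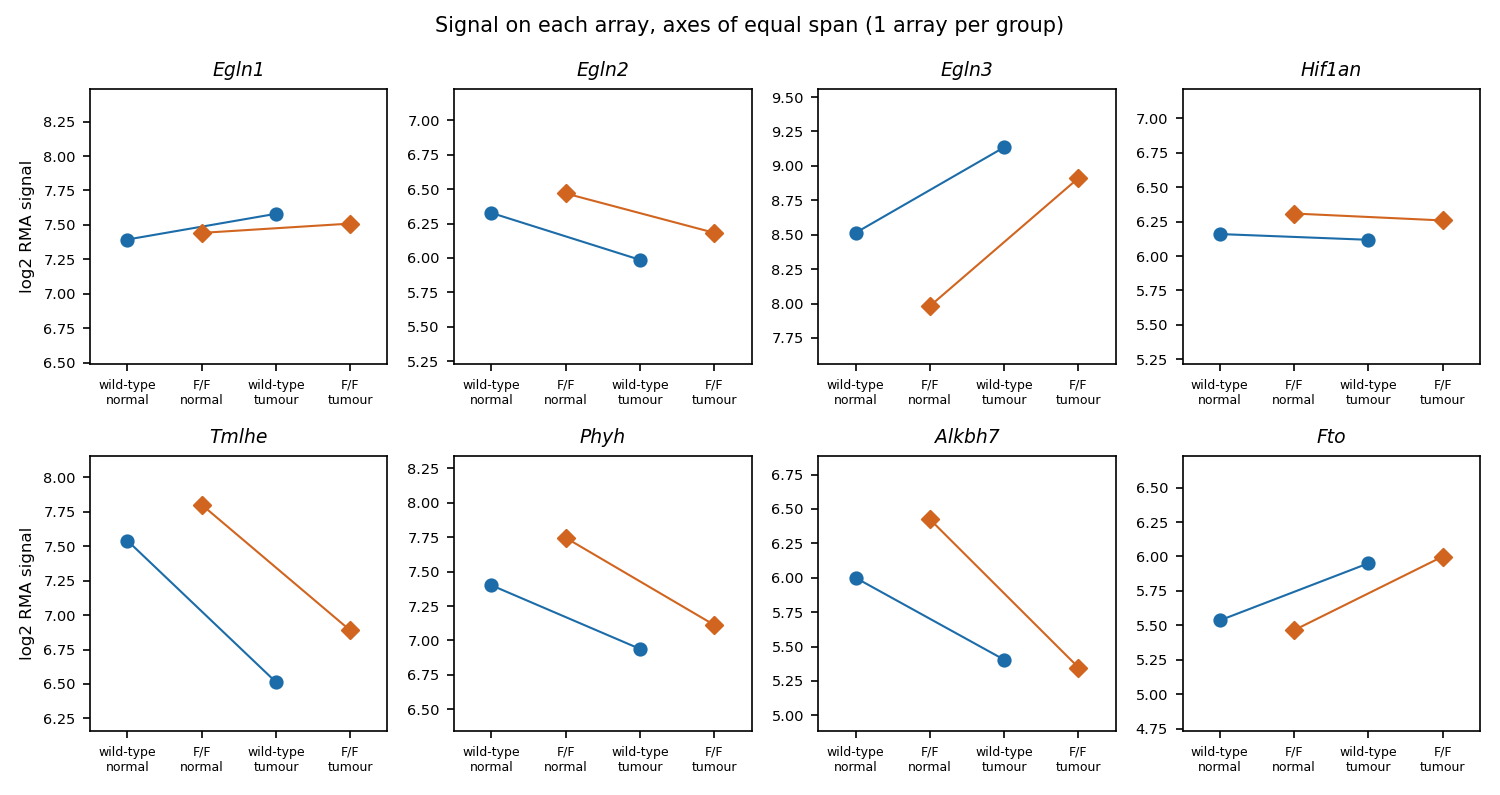
Log2 signal of the 3 Egln genes, Hif1an, Tmlhe, Phyh, Alkbh7 and Fto on each of the 4 arrays, wild-type as circles and F/F as diamonds, with lines joining normal colon and tumour of 1 genotype. Every axis spans the same log2 range around its own gene, and levels are not compared between genes; Egln3 and Fto are higher and Tmlhe, Phyh and Alkbh7 lower in both tumours, while Hif1an runs flat.

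Tmlhe, the mitochondrial enzyme that hydroxylates trimethyllysine to begin carnitine synthesis, was lower in tumour. Its signal was 7.54 and 7.80 in normal colon, against 6.51 and 6.89 in tumour. Both tumours were below both normal arrays, by 1.03 in wild-type and 0.91 in F/F mice. In the fit Tmlhe fell by 0.97 (SE 0.12, limma adjusted p = 0.0174), so that normal colon was 1.96-fold above tumour. Bbox1, the last enzyme of the same pathway, found mainly in liver and kidney, lay between 2.45 and 2.83, below the level filter on every array.

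Phyh fell by 0.55 (SE 0.12, limma adjusted p = 0.0475), from 7.40 and 7.75 in normal colon to 6.94 and 7.11 in tumour. Asph, which hydroxylates EGF-like domains in the endoplasmic reticulum, read 6.20 and 6.41 in normal colon and 5.95 and 6.08 in tumour and was not called (-0.29, SE 0.13, limma adjusted p = 0.173). Genes that work beside Tmlhe and Phyh were counted as a list. Of 11 genes of carnitine use and phytanic acid breakdown, 4 fell and none rose, where 8.23% of all genes fell and 11.0% rose. The carnitine-acylcarnitine carrier Slc25a20 was the lowest of the 4 (-0.96, SE 0.15, limma adjusted p = 0.0239). In F/F mice 0 of the 11 were higher in tumour, where 53.3% of all genes were, and in wild-type mice 1 was, where 56.7% were.

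Alkbh7, a mitochondrial AlkB protein known for a part in programmed necrosis, read 6.00 and 6.42 in normal colon and 5.40 and 5.35 in tumour. It was lower in both tumours, by 0.60 in wild-type and by 1.08 in F/F mice, and fell by 0.84 in the fit (SE 0.18, limma adjusted p = 0.0429). Beside these 3 falling genes, all 8 markers of absorptive colonocytes were lower in both tumours, with means of 10.25 and 10.60 in normal colon and 7.84 and 9.43 in tumour. Across the arrays Tmlhe and Phyh took the same order as that mean, and Alkbh7 did not, being lowest in F/F tumour. The means of the epithelial, goblet cell, adipocyte and proximal position markers took the order of Tmlhe and Phyh as well. For goblet cells the normal arrays were nearly equal, at 10.578 and 10.580. Not every marker followed its mean: Epcam, Cdh1 and the proximal marker Onecut2 (3.71 and 2.45) were higher in tumour in both genotypes. The part of any of these markers in the result was not tested. The calls of Alkbh7 and Phyh ended when all genes were tested without the level filter (limma adjusted p = 0.0530 and 0.0674) and when limma's variance trend was left out (adjusted p = 0.0563 and 0.0709). With the mean of its 2 probe sets Phyh differed by -0.27 (limma adjusted p = 0.293).

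The remaining AlkB members did not pass. Fto and Alkbh5 both remove N6-methyladenosine from RNA, and their values went apart: Fto read 5.54 and 5.46 in normal colon and 5.95 and 6.00 in tumour (0.47, SE 0.14, limma adjusted p = 0.0791), whereas Alkbh5 read 7.17 and 7.35 in normal colon and 7.02 and 6.99 in tumour (-0.26, SE 0.13, limma adjusted p = 0.213). Neither difference was called. Alkbh8, which modifies the wobble uridine of transfer RNA, was higher in both tumours without passing, at 6.68 and 6.79 in normal colon and 7.43 and 7.15 in tumour (0.55, SE 0.15, limma adjusted p = 0.0685). Alkbh6 read 5.86 and 5.42 in normal colon and 6.22 and 5.97 in tumour (0.45, SE 0.14, limma adjusted p = 0.0871). The DNA repair enzymes Alkbh2 and Alkbh3, and Alkbh4, had fitted differences between -0.06 and 0.10. Among 11 writers and readers of N6-methyladenosine, none rose and 1, the reader Ythdc2, fell by 0.96 (SE 0.11, limma adjusted p = 0.0165). Over all genes tested, 11.0% rose and 8.23% fell.

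None of the 13 histone demethylases that passed the level filter was called for tumour against normal colon, nor was either of the other JmjC genes, Jmjd4 and Jmjd8, or any of the 3 TET genes. Kdm5b, which removes activating methylation from histone H3, had the highest fitted difference of the demethylases (0.39, SE 0.15, limma adjusted p = 0.141), with 7.96 and 8.22 in normal colon and 8.58 and 8.38 in tumour. Kdm6b, which removes the repressive Polycomb mark, read 7.62 and 8.08 in normal colon and 8.27 and 8.22 in tumour, so that only wild-type normal colon stood low (fitted 0.39, SE 0.16, limma adjusted p = 0.163). With the mean of its 2 probe sets the fitted difference of Kdm6b was 0.0042 (limma adjusted p = 0.991). Kdm3a, an H3 lysine demethylase induced by hypoxia in many cells, was at 7.77 and 7.78 in normal colon and at 8.10 on both tumour arrays (0.32, SE 0.11, limma adjusted p = 0.111). The value repeated closely between genotypes but did not pass the test. Kdm7a was lower in both tumours, from 8.79 and 8.99 to 8.59 and 8.55 (-0.32, SE 0.12, limma adjusted p = 0.136). The other 9 demethylases, Kdm2a, Kdm3b, Kdm4a, Kdm4b, Kdm4c, Kdm5a, Phf2, Phf8 and Jmjd1c, had fitted differences between -0.16 and 0.26.

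Kdm4a, Kdm4b and Kdm4c, paralogs that act on H3 lysine marks of heterochromatin and gene bodies, were not called, and differences between them were not tested. Kdm4a read 7.11 and 7.26 in normal colon and 7.47 and 7.42 in tumour (0.26, SE 0.13, limma adjusted p = 0.202). Kdm4c read 7.17 and 7.32 in normal colon and 7.12 and 7.05 in tumour (-0.16, SE 0.13, limma adjusted p = 0.397). Kdm4b lay at 5.67 and 5.68 in normal colon and at 6.00 and 5.64 in tumour, so that only wild-type tumour stood apart (0.15, SE 0.16, limma adjusted p = 0.525). Phf2, a demethylase of repressive H3 marks, was low in wild-type normal colon alone, at 7.18, with 7.59 in F/F normal colon and 7.41 and 7.51 in tumour. Of the other JmjC proteins, Jmjd4, a lysyl hydroxylase of a translation termination factor, read 5.11 and 5.28 in normal colon and 5.50 and 5.44 in tumour (0.27, SE 0.16, limma adjusted p = 0.274). Jmjd8, a protein of the endoplasmic reticulum, lay between 7.71 and 8.02.

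No TET gene passed. Tet3 and Tet2 were higher in tumour in both genotypes: Tet3 read 7.29 and 7.58 in normal colon and 7.77 and 7.73 in tumour (0.31, limma adjusted p = 0.177), and Tet2 7.94 and 7.87 against 8.04 and 8.03 (0.14, limma adjusted p = 0.421). Tet1 read 4.47 and 4.04 in normal colon and 4.73 and 4.62 in tumour (0.42, limma adjusted p = 0.240). Of its arrays only wild-type tumour reached the filter level, so the size and direction of its differences are uncertain. The enzymes that place methyl groups were counted beside them. Of 23 histone lysine methyltransferase genes, 4 rose and none fell, with the Polycomb enzyme Ezh2 highest (0.82, SE 0.14, limma adjusted p = 0.0281). Of 11 genes of DNA methylation and its repair 3 rose and none fell, with the maintenance methyltransferase Dnmt1 at 0.83 (SE 0.14, limma adjusted p = 0.0277). Over all genes tested, 11.0% rose and 8.23% fell. Whether the placing and the removing enzymes differ was not tested.

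Of the 9 genes in the group of collagen hydroxylases, 4 passed the level filter, where 12060 of all 22180 genes did, and none was called. P3h2, a prolyl hydroxylase of basement membrane collagen, had the widest spread of any member, with 6.84 and 6.20 in normal colon and 5.21 and 5.89 in tumour. It was lower in tumour by 1.63 in wild-type mice, and by 0.30 in F/F mice, and the fitted difference of -0.96 (SE 0.34) did not pass (limma adjusted p = 0.116). Plod2, the lysyl hydroxylase of collagen cross-link sites, differed by -0.45 in wild-type and 0.60 in F/F mice, with 5.86 and 5.12 in normal colon and 5.42 and 5.72 in tumour. P4ha1, the main catalytic subunit of collagen prolyl hydroxylase, read 7.13 and 6.76 in normal colon and 6.91 and 6.85 in tumour, and Plod1 lay between 4.78 and 5.28.

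Among the collagen genes themselves, the substrates of these enzymes, 6 of 16 rose in tumour and none fell, with Col12a1 highest (1.69, SE 0.13, limma adjusted p = 0.00826). Of 9 collagen folding partners and crosslinkers, 4 rose and none fell, led by the lysyl oxidase Lox (1.48, SE 0.20, limma adjusted p = 0.0210). Over all genes tested, 11.0% rose and 8.23% fell. The smooth muscle markers, all 9 of which were lower in tumour in both genotypes, averaged 9.01 and 8.28 in normal colon and 7.01 and 7.70 in tumour, the order that P3h2 also took. The 10 fibroblast markers averaged 7.22 and 6.72 in normal colon and 7.69 and 7.58 in tumour, and 3 collagen genes stand in both that list and the collagen list. The part of muscle or stroma in the values of P3h2 and Plod2 was not tested.

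**Figure D3:**
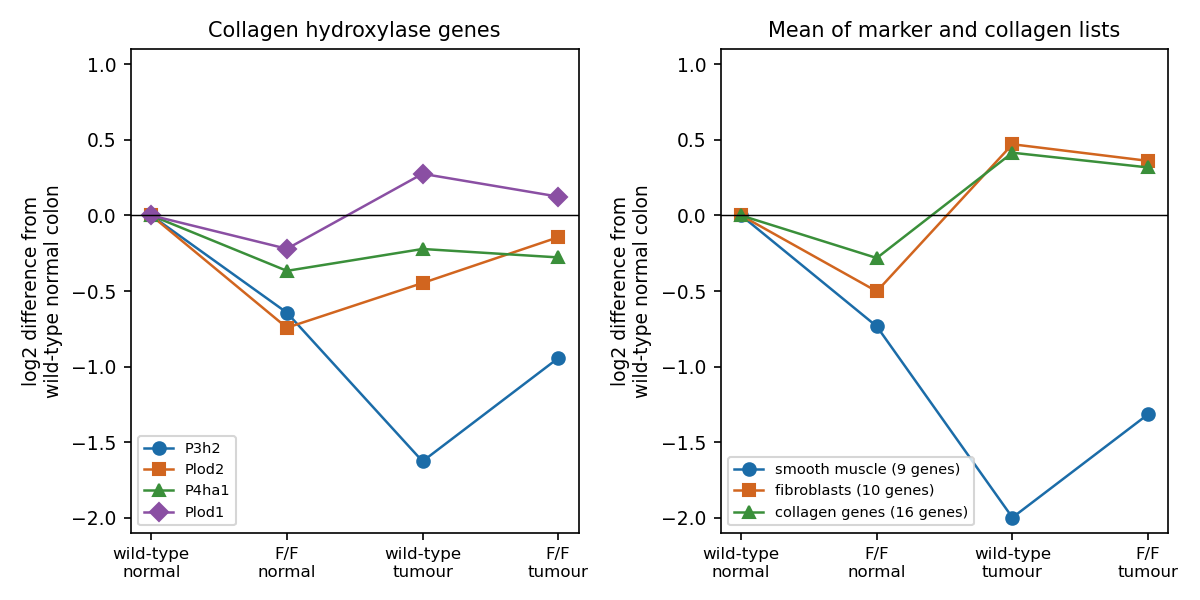
Left, log2 difference from wild-type normal colon of the collagen hydroxylase genes P3h2, Plod2, P4ha1 and Plod1 on the 4 arrays; right, the same for the mean of the smooth muscle, fibroblast and collagen gene lists, with lines drawn only to guide the eye. P3h2 and the smooth muscle mean are lowest in wild-type tumour and next lowest in F/F tumour, while the fibroblast and collagen means are above wild-type normal colon in both tumours.

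Counted at 2-fold, 2 members differed between tumour and normal colon in wild-type mice, P3h2 and Tmlhe, both lower, where 5.31% of all genes were lower and 6.56% higher by that much. In F/F mice 1 member, Alkbh7, did so, and 3.81% of genes were lower and 5.98% higher by 2-fold. With the wild-type normal array in place of the F/F normal array as the baseline of the F/F tumour, no member reached 2-fold. At a log2 difference of 0.5 or more, 7 of 37 members in wild-type mice (36.6% of all genes) and 8 of 37 in F/F mice (31.1% of all genes) differed in either direction.

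The F/F and wild-type arrays were compared to ask whether expression of these iron-using enzymes follows the Dmt1 genotype. No member passed for genotype over both tissues in limma's fit, and no gene of the 12060 did (0%). Unadjusted, 1 member, Egln3, had a p under 0.05 in limma, against 991 genes in all (8.22%). No member differed by 2-fold between genotypes, in normal colon (1.62% of genes did) or in tumour (2.21%). At log2 0.5 or more there were 3 in normal colon, Plod2, P3h2 and Egln3 (11.7% of genes), and 1 in tumour, P3h2 (11.6%). The fitted genotype difference had a median size of 0.09 over the members and 0.14 over all genes.

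Egln3 was lower on both F/F arrays, by 0.53 in normal colon, where 4.93% of genes were as low or lower, and by 0.22 in tumour (fitted -0.38, SE 0.13, limma adjusted p = 0.589, unadjusted p = 0.0389). In normal colon the distal markers were lower on the F/F array too, in 5 of 6 cases, and in tumour in 3 of 6. Other lists were lower there as well. Fibroblast markers were so in 9 of 10 cases in normal colon and in 8 of 10 in tumour. For neutrophil markers it was 7 of 8 and 8 of 8, and for Wnt targets 6 of 9 and 9 of 9. In normal colon only Il1b of the neutrophil markers reached the filter level, so the direction of the others is uncertain there. The part of these lists in the values of Egln3 was not tested. Tmlhe was higher on both F/F arrays, by 0.26 and 0.38, and so was Phyh, by 0.34 and 0.17; neither passed (limma adjusted p = 0.614 and 0.656). The colonocyte markers were higher on the F/F array in 7 of 8 cases in normal colon and in 8 of 8 in tumour. Epithelial markers were higher on it in 6 of 7 and 5 of 7 cases, and goblet cell markers in 4 of 8 and 8 of 8. For adipocyte markers it was 6 of 6 and 4 of 6, and for proximal markers 7 of 8 and 6 of 8. The part of these markers in the values was not tested. Alkbh6 was lower on both F/F arrays, by 0.43 in normal colon and 0.25 in tumour (limma adjusted p = 0.641).

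In normal colon, 12 of the 13 histone demethylases read higher on the F/F array, all but Jmjd1c, with a median of 0.15, where 56.3% of all genes were higher and their median was 0.04. The differences were small: Kdm6b at 0.46 and Phf2 at 0.41 were the widest, followed by Kdm5b at 0.26, and the others lay between -0.05 and 0.21. In tumour 3 of the 13 were higher on the F/F array, Kdm2a, Kdm3a and Phf2, where 46.2% of all genes were, with a median of -0.05 against -0.02 over all genes. The widest there was Kdm4b, at 6.00 in wild-type and 5.64 in F/F tumour. In wild-type mice 10 of the 13 read higher in tumour than in normal colon (median 0.23), where 56.7% of all genes did (median 0.08). In F/F mice 6 of the 13 did (median -0.01), against 53.3% of all genes (median 0.04). The wild-type normal array is shared by the comparison of genotypes in normal colon and the tumour comparison of wild-type mice. The demethylase counts thus rest in part on 1 array. Similar counts were seen in some other lists but not in all. The genes of DNA methylation and its repair were higher on the F/F array in 9 of 11 cases in normal colon and in 3 of 11 in tumour. The writers and readers of N6-methyladenosine had the same counts. The histone lysine methyltransferases differed in normal colon, where 10 of 23 were higher (43.5%, median -0.03), and in tumour 8 of 23 were. Between the normal arrays, 7 of 8 proximal markers (median 1.27) and 6 of 6 adipocyte markers were higher on the F/F array, and 5 of 6 distal markers (median -0.91) and 9 of 9 smooth muscle markers lower. Their part in the demethylase counts was not tested.

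**Figure D4:**
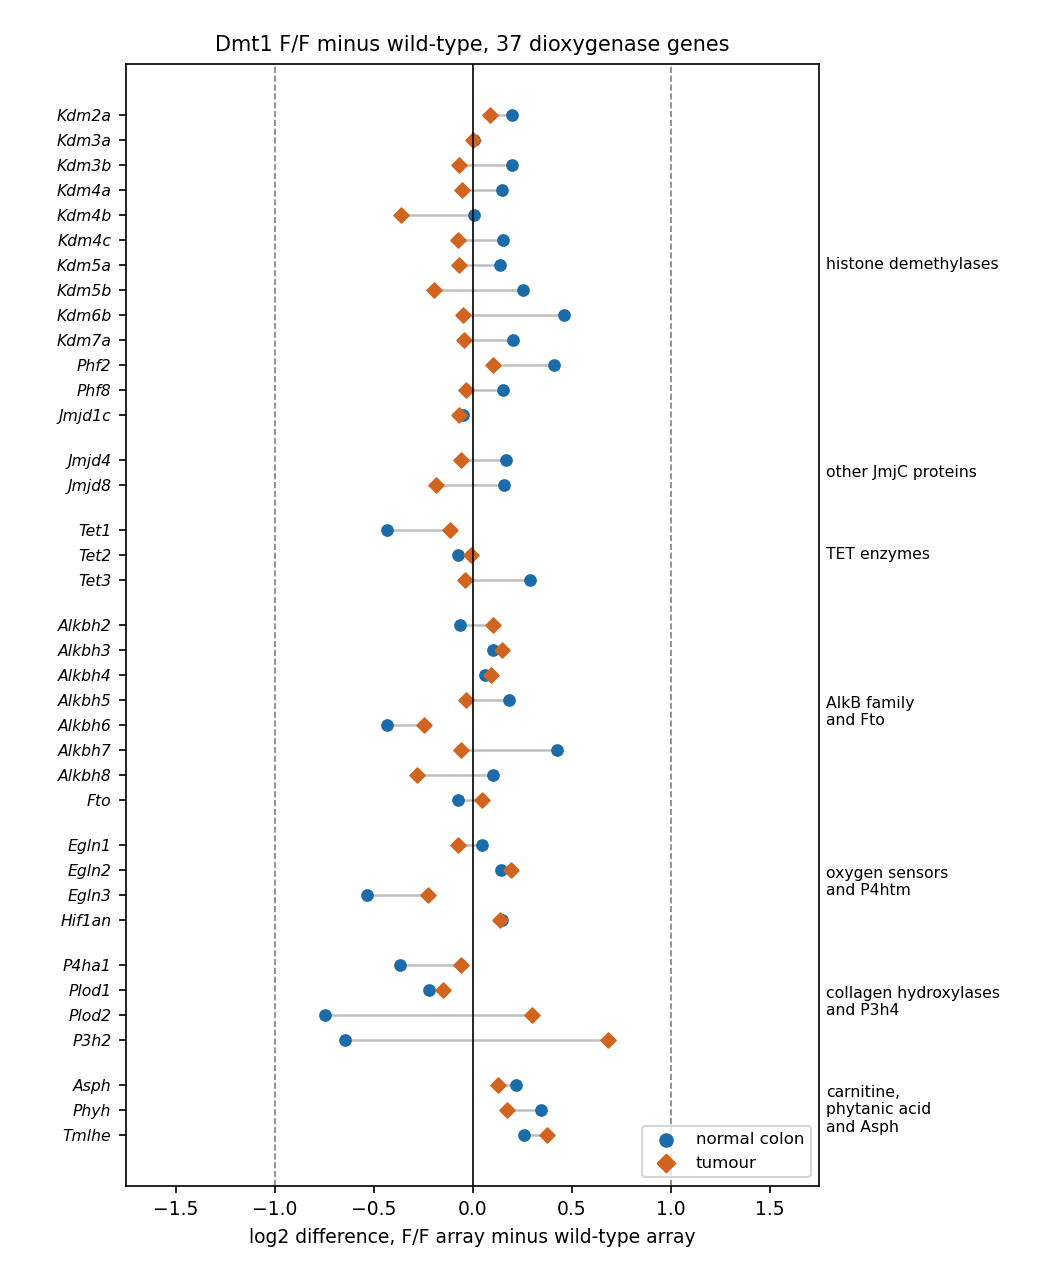
Dmt1 F/F minus wild-type in normal colon (circles) and tumour (diamonds), as the log2 difference of 2 arrays, for the same 37 members grouped by role, with dashed lines at 2-fold. All but 1 of the histone demethylases lie right of 0 in normal colon, the 4 collagen hydroxylases lie left of it there, and no member reaches a dashed line.

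All 4 collagen hydroxylases above the level filter were lower on the F/F array in normal colon, where 56.3% of all genes were higher. Plod2 was lower by 0.74, P3h2 by 0.64, P4ha1 by 0.37 and Plod1 by 0.22. Below the filter, where direction is uncertain, P3h1, P4ha3 and P3h3 were lower too, and P4ha2 and P3h4 were higher. For Plod2, 2.38% of genes were as low or lower, and for P3h2 3.33%. In tumour P3h2 was higher on the F/F array by 0.68 and Plod2 by 0.30, while P4ha1 and Plod1 were at -0.06 and -0.15. Smooth muscle markers took both directions as well, lower on the F/F array in 9 of 9 cases in normal colon and higher in 9 of 9 in tumour. Of the collagen genes, 14 of 16 were lower in F/F normal colon and 11 of 16 in F/F tumour. In tumour 46.2% of all genes were higher on the F/F array. Of the TET genes, Tet1 differed most, by -0.43 in normal colon, where both arrays were below the filter level, and by -0.11 in tumour, where the F/F array was.

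Genes that supply iron or substrate to these enzymes were counted in the same way. For tumour against normal colon, 11.0% of all genes rose and 8.23% fell. Between genotypes, 1.62% of all genes differed by 2-fold in normal colon and 2.21% in tumour. None of the 15 genes of alpha-ketoglutarate, succinate and fumarate metabolism reached 2-fold between genotypes; for tumour against normal colon 5 fell and none rose, with the succinate dehydrogenase subunit Sdhb lowest (-0.74, SE 0.12, limma adjusted p = 0.0254). Of 10 genes of cytosolic iron supply, iron uptake and ascorbate transport, 1 fell in tumour, the iron exporter Slc40a1 (-0.82, SE 0.11, limma adjusted p = 0.0198), and none rose or differed by 2-fold between genotypes. In the hypoxia list Car9, a carbonic anhydrase, was higher by 1.04 in F/F tumour, at 7.41 against 6.37. Flavin-dependent demethylases and their partners, which need no iron for catalysis, had 1 gene that rose, Hdac2 (0.78, SE 0.11, limma adjusted p = 0.0211), and 1 that fell, Hdac1 (-0.55, SE 0.12, limma adjusted p = 0.0459), of 6.

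The 10 members below the level filter have differences of uncertain size and direction. P3h1, which works on fibrillar collagen with Crtap, read 4.02 and 3.32 in normal colon and 4.40 on both tumour arrays. P3h4 read 3.69 and 4.43 in normal colon and 4.25 and 4.38 in tumour, and P3h3 stayed between 4.42 and 4.56. P4ha2 came closest to the filter, with 4.09 and 4.26 in normal colon and 4.67 and 4.52 in tumour, and P4ha3 was no higher than 4.10. Kdm8, a JmjC protein, read 4.12 and 4.32 in normal colon and 4.49 and 4.46 in tumour, and Kdm4d, a demethylase expressed mainly in testis, 3.53 and 3.20, and 3.39 and 3.89. The antisense RNA Alkbh3os1 lay between 2.52 and 2.92. Among those that passed, Tet1 was nearest to the filter, with a highest value of 4.73.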

How the data were processed

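Total RNA (400 ng, extracted with Trizol per the labels' protocols) was measured on 4 arrays. The deposited values are log2 signals per probe set, which the authors made with RMA in oligo, per the submitters' processing notes, versions not given. RMA equalises total signal between arrays and gives no detection call. Of 41345 probe sets, 23521 had 1 gene in the platform annotation, 1814 several and 16010 none; 23328 matched RefSeq (GRCm38.p6) by gene ID for current symbols. No columns of other samples were present (0).

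One additive model (tissue and genotype) was fitted with limma 3.58.1 in R 4.3.3, eBayes with trend, with Benjamini-Hochberg adjustment over 12060 genes; the prior had 3.4 degrees of freedom. It was tested on simulated data with independent noise from the fitted prior and a tissue effect only. That simulation cannot show how the model fares with an interaction or with spread between mice. The only residual is the interaction of tissue with genotype, so the p-values rest on that term and on limma's prior over the genes. With no replicate, the spread between mice was not measured. Normal and tumour RNA may share mice. The members and lists (10 pathway and 14 marker lists) were chosen with earlier results of these data known. All members are named; of each pathway list, the highest and lowest called gene and any gene at 2-fold by genotype. Alternatives covered the level filter, normalization, probe set choice, fold, eBayes settings and the F/F baseline. Tables were summarised with Python 3.11.15 and pandas 2.3.3.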

Additional observations from a re-analysis of the deposited data

Results flagged for a closer look

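P3h2 was higher on the F/F array in tumour, by 0.68, and lower on it in normal colon, by a log2 difference of -0.64. It was singled out because the genotype difference ran in opposite directions in the tissues and was at least 0.5 on each side. Each direction rests on 1 pair of arrays, and the difference between the tissues was not tested.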

How the results depend on the processing

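No paired analysis was possible because each group has 1 array and the labels carry no replicate numbers; the additive model compares the tissues within each genotype. Of 4 members called, 2 (Egln3 and Tmlhe) were called with no filter on level and again with eBayes without trend. Over 8 alternatives Egln3 had adjusted p-values in limma from 0.0103 to 0.0486 and Tmlhe from 0.0029 to 0.0316, with unchanged direction. Centring each array also called P3h2. The stricter filter kept 23 members and gave no value for Alkbh7. Members at log2 0.5 or more numbered 7 for tumour against normal in wild-type mice, 8 in F/F mice, 3 for genotype in normal colon and 1 in tumour. At 2-fold in F/F mice, there were 2 members without the filter, 0 with the stricter filter and 0 with the wild-type normal baseline. The members' median for F/F mice, 0.014, became -0.013 after quantile normalization, -0.063 with centred arrays and -0.059 after cyclic loess, and the median over all genes, 0.039, became -0.060, -0.040 and -0.043; the cause was not tested. Uncalled values near 0 changed sign: Alkbh2 to -0.052 (quantile) and -0.0091 (loess), Kdm2a to -0.0053 (centring) and -0.014 (loess), Phf2 to -0.011 (loess) and Plod2 to -0.072 (quantile) and -0.032 (loess). After cyclic loess 46.4% of all calls rose and not 57.3%. The medians and demethylase counts were added after the data were seen. The counts stayed within 1.5 times, and some reached that limit. In F/F mice the demethylases higher in tumour, 6 of 13, became 4 with quantile normalization, centring and cyclic loess alike. Those higher on the F/F array in tumour went from 3 to 2 with centring.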

Other observations

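Phyh, Kdm6b and Asph each had a second probe set that was not used above. That of Phyh read 4.20 and 4.31 in normal colon and 4.53 and 4.00 in tumour (wild-type first), below the level filter throughout. That of Kdm6b lay between 2.80 and 3.65, and that of Asph read 5.01 and 4.74 in normal colon and 4.66 and 5.13 in tumour.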
